A study of Bos taurus with 28 samples.

Results

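The enzymes described here are PDHA1, PDHB, LDHA, LDHB, PGD, TKT, TALDO1, ALDOA and PGK1, which carry carbon through the lower part of glycolysis, around the pentose phosphate pathway, and out of pyruvate. These 9 of the 9155 genes measured were read by 16 of the 24016 probe sets tested, namely every probe set whose only gene symbol in the platform annotation was 1 of the 9. PDHA1 had 4 probe sets, PDHB 3 and LDHA 3, and the other 6 genes had 1 each. The samples were mammary biopsies of 28 lactating Holstein-Friesian cows, each hybridised to its own 1-colour Affymetrix bovine array. The cows carried the lysine (K) or alanine (A) form of DGAT1, the enzyme that completes triacylglycerol. There were 4 KK, 13 KA and 11 AA cows, all in the middle of lactation and all on a mixed ration that the labels call a control diet. A whole biopsy holds several cell types, and fewer cells of a type cannot be told apart from less RNA per cell.

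Pyruvate stands at a branch point. The pyruvate dehydrogenase complex, whose first component is built from PDHA1 and PDHB, turns pyruvate into acetyl-CoA in the mitochondrion, and lactate dehydrogenase, a tetramer of LDHA and LDHB subunits, converts pyruvate and lactate into each other. The pentose phosphate pathway branches off from upper glycolysis, yields NADPH and ribose phosphate, and returns carbon to glycolysis. In the ruminant mammary gland, glucose is largely spent on lactose, and fatty acids are made mainly from acetate and ketone bodies, with NADPH drawn from the pentose phosphate pathway and from cytosolic isocitrate dehydrogenase.

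All values are log2 values relative to a baseline that had been subtracted per probe set, so cows can be compared but levels of different probe sets cannot. A coarse level class could still be read from the rounding of the values. It was bright for 8 of the 16 probe sets (1 each of PDHA1, LDHA, LDHB, PGD, TKT, TALDO1, ALDOA and PGK1), intermediate for 6 and dim for 2, both of PDHB. Of all probe sets tested, 2615 were bright, 13973 intermediate and 7428 dim. Where 1 value per gene was needed, the brightest probe set stood for the gene.

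Cows were numbered within their genotype, and AA 2 and AA 9 were unlike the rest. Their values had an SD over probe sets of 0.86 and 0.78, compared with 0.21 to 0.35 on the other 26 arrays. Of 15 measured markers of secretory epithelium 13 were bright, as the labelled tissue would have. Averaged per cow, they stood at -0.33 in AA 2, at -0.91 in AA 9 and between -0.23 and 0.17 elsewhere. For 11 measured fibroblast and matrix markers the means were 1.04, 1.42 and -0.48 to 0.42. Array numbers, which the sample titles give, ran with genotype. Numbers 29 to 42 held 4 KK, 2 KA and 8 AA arrays, and numbers 43 to 56 held 0 KK, 11 KA and 3 AA arrays. The sources used here do not say what the numbers mark. The part that tissue makeup and array number had in the results was not tested. Values without AA 2 and AA 9, or with array number or the fibroblast and matrix marker mean in the fit, are given beside the results or in the closing section on processing.

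Mean differences between genotypes were small for most of the 16 probe sets, and 0 of them passed the adjustment over all probe sets in any comparison. The slope per K allele (0, 1 or 2 alleles) was positive in 12 and negative in 4, with a median of 0.03 log2, against 0.01 over all probe sets. KK minus AA was positive in 11 and negative in 5 (median 0.06, against 0.01 over all). KA minus AA was also positive in 11 and negative in 5 (median 0.04, against 0.02 over all), and KK minus KA was positive in 10 and negative in 6 (median 0.02, against -0.0015 over all). In limma with Benjamini-Hochberg adjustment, 0 of the 24016 probe sets passed at 0.05 in each of the 4 comparisons, a background of 0%.

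At an unadjusted limma p under 0.05, the slope picked out 2 of the 16 probe sets, where the background was 9.16% of all probe sets. KK minus AA picked out 0 (background 3.51%), KA minus AA 4 (background 21.8%) and KK minus KA 0 (background 2.84%). Without AA 2 and AA 9 the slope picked out 0 (background 3.26%), KK minus AA 0 (background 2.76%), KA minus AA 3 (background 9.50%) and KK minus KA 2 (background 6.08%). The count of 4 of 16 for KA minus AA thus lay near the background share. In simulated arrays with these groups, a change of 0.5 log2 was called in 87% of cases for the slope (per allele), 35% for KK minus AA, 70% for KA minus AA and 34% for KK minus KA, and a change of 1 log2 in 99%, 87%, 97% and 85%. The simulated noise was independent between probe sets and cows, at each probe set's own spread. It held no outlying arrays and no array number effect, and the changed probe sets were picked at random. The rates are therefore averages over probe sets and not rates for these 16.

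**Figure D1:**
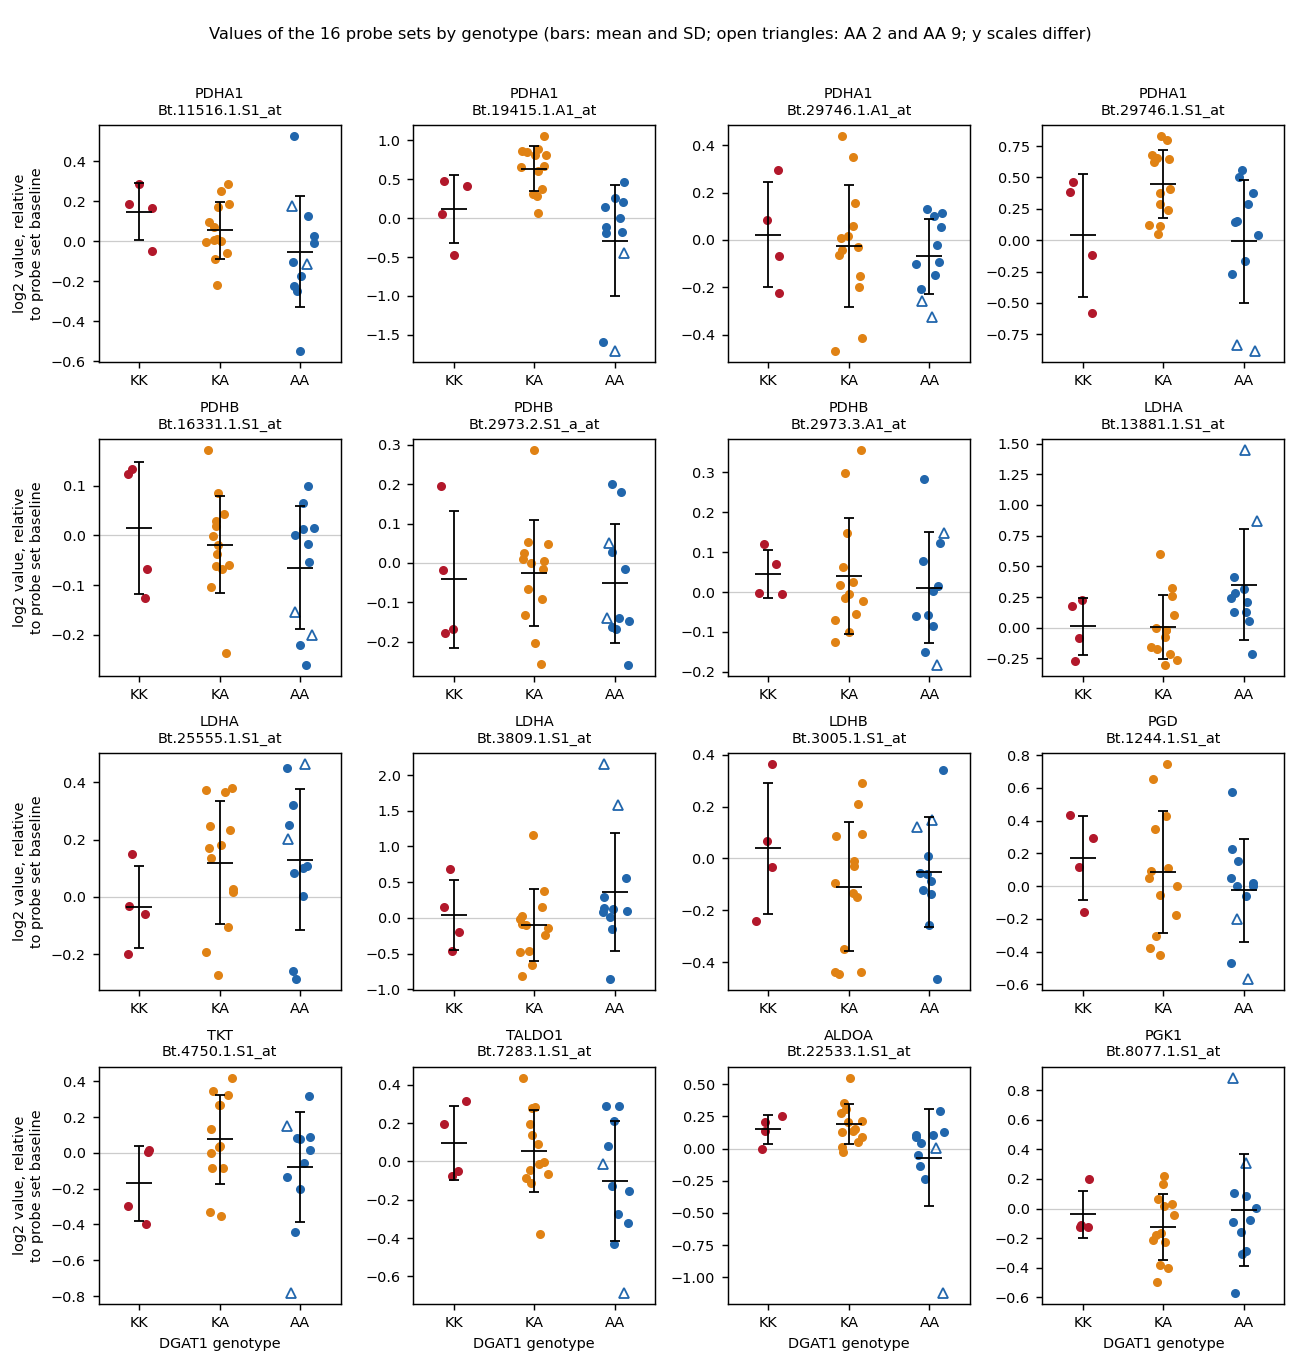
Log2 value of each cow (vertical axis, relative to the probe set's own baseline) for the 16 probe sets, by genotype in the order KK, KA and AA, with the mean and SD of each group in black. Open triangles are AA 2 and AA 9. KA cows stand high in PDHA1 Bt.19415.1.A1_at, and both open triangles lie above all other cows in LDHA Bt.13881.1.S1_at, LDHA Bt.3809.1.S1_at and PGK1.

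PDHA1, the catalytic alpha subunit of the first pyruvate dehydrogenase component, was read by 4 probe sets that did not give 1 answer. Probe set Bt.19415.1.A1_at was higher in KA cows than in AA cows by 0.93 log2, or 1.90-fold, and had the smallest KA minus AA p of the 16. The bright probe set Bt.11516.1.S1_at differed between the same groups by 0.11 log2, and Bt.29746.1.A1_at by 0.04. The fourth, Bt.29746.1.S1_at, differed by 0.46 log2, or 1.37-fold. The numbers in the names show that the last pair were designed on the same source sequence cluster, with different letters (A and S) for its orientation, and the sources used here do not say which strand of the gene each reads.

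In Bt.19415.1.A1_at the KK cows had 0.48, 0.42, -0.47 and 0.06. The KA cows lay between 0.07 and 1.06 with a median of 0.68, and the AA cows between -1.71 and 0.46 with a median of -0.12. Every KA cow was thus above the AA median, while the KK cows overlapped both other groups. The means were 0.12 ± 0.43 in KK (SD, n = 4), 0.64 ± 0.29 in KA (n = 13) and -0.29 ± 0.72 in AA (n = 11). A pair of AA cows were far below the rest, AA 2 at -1.71 and AA 11 at -1.59, and AA 9 was at -0.45.

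The KA minus AA difference of Bt.19415.1.A1_at was 0.93 log2 (SE 0.20, 95% interval 0.51 to 1.34), and 15 of the 24016 probe sets had a smaller p. It did not pass the adjustment (limma p = 8.38e-05, adjusted p = 0.114). Without AA 2 and AA 9 it was 0.75 (SE 0.18, adjusted p = 0.192), without AA 11 as well it was 0.57, and with the fibroblast and matrix marker mean as a covariate it was 0.71. The call depended on the setting. It passed after quantile normalization (0.86, limma adjusted p = 0.0264), with array weights (0.75, adjusted p = 0.0267) and without AA 1 (0.98, adjusted p = 0.0383). KK minus AA was 0.41 (95% interval -0.18 to 1.00), but 0.26 without AA 2, 0.23 without AA 2 and AA 9 and 0.05 without AA 11 too. KK minus KA was -0.52 (limma p = 0.0764, adjusted p = 1). The slope of 0.38 per K allele (SE 0.16, limma p = 0.0251, adjusted p = 0.526) therefore joins group means that did not run in allele order, since KA was highest.

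Bt.29746.1.S1_at had the same order of group means. Its KK cows had -0.12, 0.39, -0.58 and 0.47, its KA cows 0.05 to 0.83 with a median of 0.41, and its AA cows -0.88 to 0.56 with a median of 0.15. The lowest of the 28 values were those of AA 2 (-0.88) and AA 9 (-0.83), and the groups otherwise overlapped. KA minus AA was 0.46 (SE 0.16, limma p = 0.00686, adjusted p = 0.147) and 0.27 without AA 2 and AA 9 (SE 0.13, p = 0.0457, adjusted p = 0.512). The KK minus AA difference was 0.05 (95% interval -0.41 to 0.50) and -0.14 without AA 2 and AA 9.

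The other PDHA1 probe sets showed a different order. In the bright Bt.11516.1.S1_at, KK cows had 0.29, 0.16, 0.19 and -0.05, KA cows -0.22 to 0.28 with a median of 0.01, and AA cows -0.55 to 0.52 with a median of -0.10. KA minus AA, 0.11 with all cows, was 0.01 with the ranges of array numbers as a block. The KK mean was highest, the groups overlapped, and AA 11, the lowest of the 26 other cows in Bt.19415.1.A1_at, was the highest of all here. Set against AA, KK was higher by 0.20 (95% interval -0.05 to 0.45, limma adjusted p = 0.909) and the slope was 0.10 per K allele (SE 0.06, adjusted p = 0.527). In Bt.29746.1.A1_at the means were 0.02 ± 0.22 in KK, -0.03 ± 0.26 in KA and -0.07 ± 0.16 in AA, and the KA minus AA interval was -0.14 to 0.23.

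Whether the probe sets of a gene disagree was tested on the difference between them within each cow, in 24 comparisons over PDHA1, PDHB and LDHA. Bt.19415.1.A1_at minus Bt.29746.1.A1_at averaged 0.66 ± 0.37 in KA (n = 13) and -0.22 ± 0.61 in AA (n = 11). The groups thus differed by 0.88 log2, and 13 of 13 KA cows lay above the AA mean (two-sided permutation test, p = 0.0001, adjusted p = 0.0024). Without AA 2 and AA 9 it was 0.76 (exact permutation test, p = 0.000189, adjusted p = 0.00454). The sources used here do not say which strand of the gene either of these probe sets reads. The difference may thus not compare 2 readings of the PDHA1 messenger RNA. Bt.11516.1.S1_at minus Bt.19415.1.A1_at was -0.58 ± 0.20 in KA and 0.24 ± 0.93 in AA, a difference of -0.82 with 13 of 13 KA cows below the AA mean (permutation p = 0.00082, adjusted p = 0.00984). The limit on strand holds for this pair too.

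That second difference was -0.63 without AA 2 and AA 9 (exact permutation, adjusted p = 0.0375) and -0.37 without AA 11 too, where it no longer passed (exact permutation, adjusted p = 0.0916). Bt.19415.1.A1_at minus Bt.29746.1.A1_at still passed there, at 0.60 (exact permutation, adjusted p = 0.0111). Bt.19415.1.A1_at minus Bt.29746.1.S1_at differed by 0.47 between KA and AA, and Bt.29746.1.A1_at minus Bt.29746.1.S1_at by -0.41 (permutation adjusted p = 0.0644 for each). With the ranges of array numbers as a block the first of these was 0.59 and passed (permutation adjusted p = 0.0181), as did both differences above, whereas the second did not (adjusted p = 0.0714). For the block, the fitted range effect was subtracted and genotypes were then permuted over all cows, not within ranges. These p-values leave out the uncertainty of that effect, so they cannot decide whether the differences hold apart from array number. None of the 12 KK minus AA comparisons passed, with exact permutation p from 0.183 to 0.932. Of the 6 pairs of PDHA1 probe sets, 2 therefore differed in KA minus AA by more than the spread between cows, both of them pairs with Bt.19415.1.A1_at.

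Array number ran with genotype here. Within the lower numbers, KA minus AA in Bt.19415.1.A1_at was 0.62 (n = 2 and 8), and 0.39 without AA 2. Within the upper numbers it was 1.38 (n = 11 and 3), and 1.52 without AA 9, where AA 11 was 1 of the 2 AA cows left. In Bt.29746.1.S1_at it was -0.03 within the lower numbers and 0.83 within the upper ones, so the sign was not shared. Blocking on the 2 ranges of numbers gave a difference of 1.07 in Bt.19415.1.A1_at and 0.49 in Bt.29746.1.S1_at.

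**Figure D2:**
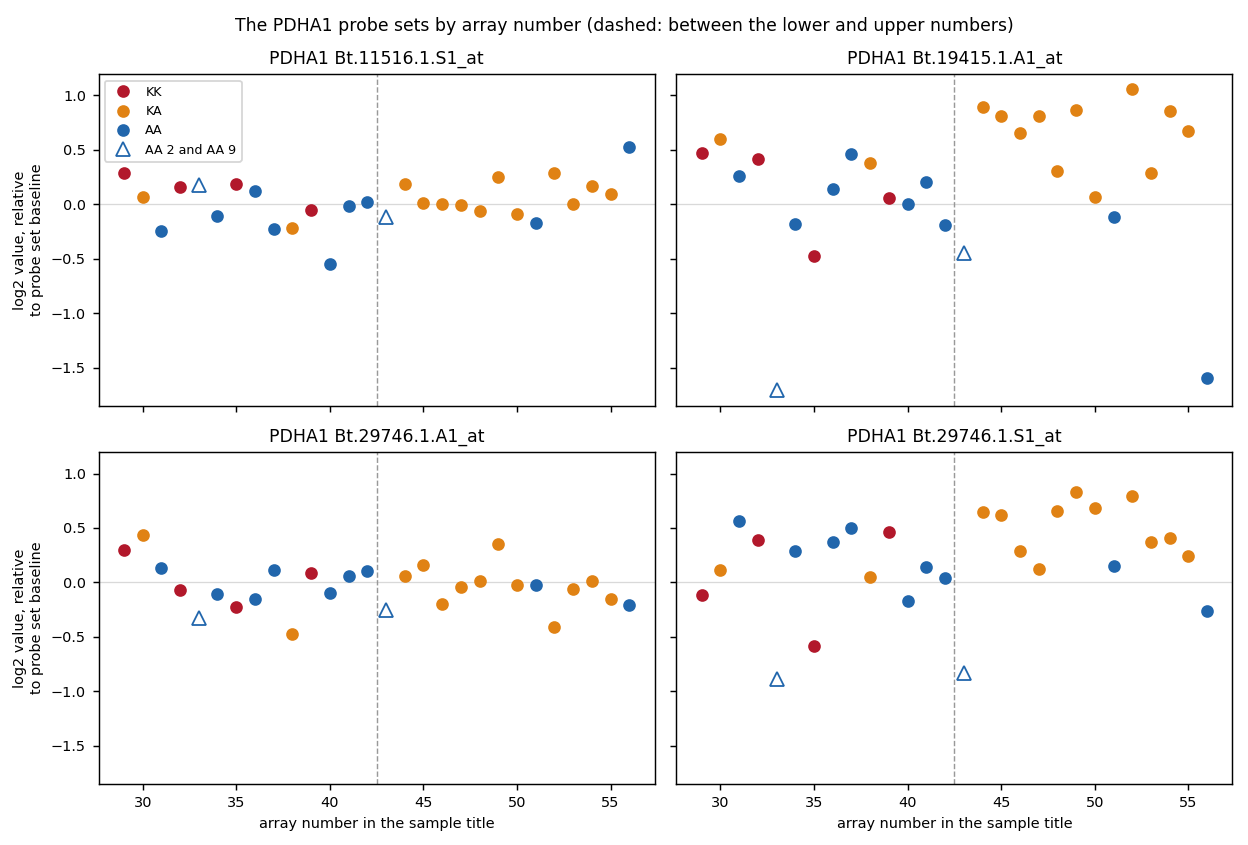
Log2 value of each cow in the 4 PDHA1 probe sets (vertical axis) against the array number in its sample title (horizontal axis), with KK in red, KA in orange and AA in blue. Open triangles are AA 2 and AA 9, and the dashed line parts the lower from the upper numbers. In Bt.19415.1.A1_at, AA 2 at -1.71 and AA 11 at -1.59 lie far below the other cows, and 11 of the 13 KA cows have upper numbers.

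PDHB, the beta subunit that pairs with PDHA1, barely differed between genotypes in any of its 3 probe sets when array number was left out of the fit. In Bt.2973.2.S1_a_at, the brightest of them, KK cows had 0.20, -0.17, -0.18 and -0.02, KA cows -0.26 to 0.29 with a median of 0.0003, and AA cows -0.26 to 0.20 with a median of -0.14. The 3 groups covered nearly the same range. The differences were 0.01 for KK minus AA (95% interval -0.18 to 0.20) and 0.03 for KA minus AA (95% interval -0.11 to 0.16). The dim probe sets Bt.16331.1.S1_at and Bt.2973.3.A1_at gave KK minus AA of 0.08 and 0.03, and KA minus AA of 0.05 and 0.03. None of these intervals reached 0.25 log2 on either side. With the ranges of array numbers as a block, KA minus AA was 0.11 in Bt.2973.2.S1_a_at, 0.12 in Bt.16331.1.S1_at and 0.07 in Bt.2973.3.A1_at. KK minus AA was then -0.03, 0.04 and 0.02.

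LDHA, the lactate dehydrogenase subunit that predominates in mammalian skeletal muscle, was highest in 2 AA cows, and the genotypes otherwise overlapped. In the bright probe set Bt.13881.1.S1_at, KK cows had -0.08, 0.23, 0.18 and -0.27, KA cows -0.30 to 0.60 with a median of -0.02, and AA cows -0.22 to 1.45 with a median of 0.24. AA 2 (1.45) and AA 9 (0.87) were above all other cows, and the remaining AA cows lay among the KK and KA cows. KA minus AA was -0.35 (SE 0.14, limma p = 0.0167, adjusted p = 0.175) and -0.17 without AA 2 and AA 9 (SE 0.10, p = 0.0971). For KK minus AA the value was -0.34 (95% interval -0.74 to 0.06) and -0.16 without them. Within the lower array numbers KA minus AA was -0.17, or -0.01 without AA 2, and within the upper numbers it was -0.46, or -0.24 without AA 9.

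LDHA Bt.3809.1.S1_at, which was designed on a RefSeq messenger RNA, had the widest range of the LDHA probe sets. Its KK cows had -0.46, -0.20, 0.15 and 0.68, its KA cows -0.81 to 1.16 with a median of -0.11, and its AA cows -0.85 to 2.15 with a median of 0.13. AA 2 at 2.15 and AA 9 at 1.58 were again highest, followed by KA 5 at 1.16. KA minus AA was -0.47 (SE 0.25, limma p = 0.0742), and -0.13 without AA 2 and AA 9 (SE 0.19, p = 0.483). For KK minus AA it was -0.32 (SE 0.36) with all cows, 0.01 (SE 0.26) without that pair and 0.50 with the fibroblast and matrix marker mean as a covariate, so its sign was not settled.

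In the other LDHA probe set, Bt.25555.1.S1_at, AA 2 (0.20) and AA 9 (0.46) did not both stand above the rest. The means were -0.03 ± 0.14 in KK, 0.12 ± 0.21 in KA and 0.13 ± 0.25 in AA, and KK minus AA was -0.16 (95% interval -0.43 to 0.10). Over the 3 LDHA probe sets, 0 of 6 differences between probe sets passed for KK or KA against AA, the smallest p being that of Bt.13881.1.S1_at minus Bt.25555.1.S1_at, which differed by -0.34 between KA and AA (permutation p = 0.0244, adjusted p = 0.117).

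LDHB, the subunit that predominates in mammalian heart, had no extreme cow of the kind seen in LDHA. In Bt.3005.1.S1_at, KK cows had 0.07, -0.24, 0.36 and -0.03, KA cows -0.44 to 0.29 with a median of -0.10, and AA cows -0.46 to 0.34 with a median of -0.06. The ranges overlapped almost wholly, and AA 2 (0.12) and AA 9 (0.15) lay inside the range of the other cows. The KK mean less the AA mean was 0.09 (95% interval -0.19 to 0.37) and KA minus AA -0.06 (95% interval -0.25 to 0.14). Within the lower array numbers KA minus AA was 0.19 (n = 2 and 8), or 0.23 without AA 2. Within the upper numbers it was -0.30 (n = 11 and 3), or -0.31 without AA 9, so the sign was not shared.

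Among the pentose phosphate enzymes, PGD makes NADPH in the oxidative branch by decarboxylating 6-phosphogluconate. Its probe set gave 0.29, 0.44, 0.12 and -0.16 in KK cows, -0.42 to 0.75 with a median of 0.05 in KA cows, and -0.57 to 0.57 with a median of 0.0024 in AA cows. The KK mean was highest, with 3 of the 4 KK cows above the AA median, but all 4 lay within the range of the AA cows. The difference from AA was 0.20 for KK (95% interval -0.19 to 0.59) and 0.12 without AA 2 and AA 9. For KA it was 0.11 (95% interval -0.16 to 0.38) and 0.03 without them.

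TKT and TALDO1 catalyse the carbon exchanges of the non-oxidative branch. TKT had -0.40, -0.30, 0.0040 and 0.02 in KK cows, -0.35 to 0.42 with a median of 0.04 in KA cows, and -0.78 to 0.32 with a median of 0.01 in AA cows. Here KK had the lowest mean, -0.17 ± 0.21 (SD, n = 4), against 0.08 ± 0.25 in KA (n = 13) and -0.08 ± 0.31 in AA (n = 11). KK minus AA was -0.09 (95% interval -0.40 to 0.23), and KA minus AA was 0.16 (95% interval -0.06 to 0.38). The sign of that KA difference changed with array number, to -0.05 with the number ranges as a block, and so did that of KK minus AA, to 0.0080 with the block and 0.09 with array number as a linear term.

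TALDO1 had 0.32, -0.05, 0.20 and -0.08 in KK cows, -0.38 to 0.44 with a median of -0.01 in KA cows, and -0.69 to 0.29 with a median of -0.13 in AA cows. The lowest value belonged to AA 2, and the KK cows lay within the range of the KA cows. KK minus AA was 0.20 (95% interval -0.10 to 0.50) and KA minus AA 0.16 (95% interval -0.05 to 0.37). Without AA 2 and AA 9 they were 0.14 and 0.10. PGD and TALDO1 thus had positive differences in both comparisons, none beyond the spread between cows.

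ALDOA, the aldolase that splits fructose 1,6-bisphosphate, had 0.14, 0.25, 0.21 and -0.01 in KK cows, -0.02 to 0.55 with a median of 0.15 in KA cows, and -1.12 to 0.29 with a median of 0.04 in AA cows. AA 2, at -1.12, lay far below the lowest of the other cows (-0.24), whereas AA 9, at 0.01, did not. KA minus AA was 0.26 (SE 0.11, limma p = 0.0210, adjusted p = 0.185) and 0.15 without AA 2 and AA 9 (SE 0.07, p = 0.0365, adjusted p = 0.480). In KK minus AA it was 0.22 (95% interval -0.09 to 0.53) and 0.11 without them. Within the lower array numbers KA minus AA was 0.28, or 0.14 without AA 2, and within the upper numbers 0.06, or -0.0021 without AA 9.

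PGK1, which makes the first ATP of glycolysis, had -0.12, -0.11, -0.13 and 0.20 in KK cows, -0.50 to 0.22 with a median of -0.17 in KA cows, and -0.57 to 0.88 with a median of -0.07 in AA cows. AA 2 (0.88) and AA 9 (0.31) were the highest of all cows. KK minus AA was -0.03 (95% interval -0.37 to 0.31) and KA minus AA -0.11 (95% interval -0.35 to 0.12). Without AA 2 and AA 9 the differences were 0.10 and 0.02.

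**Figure D3:**
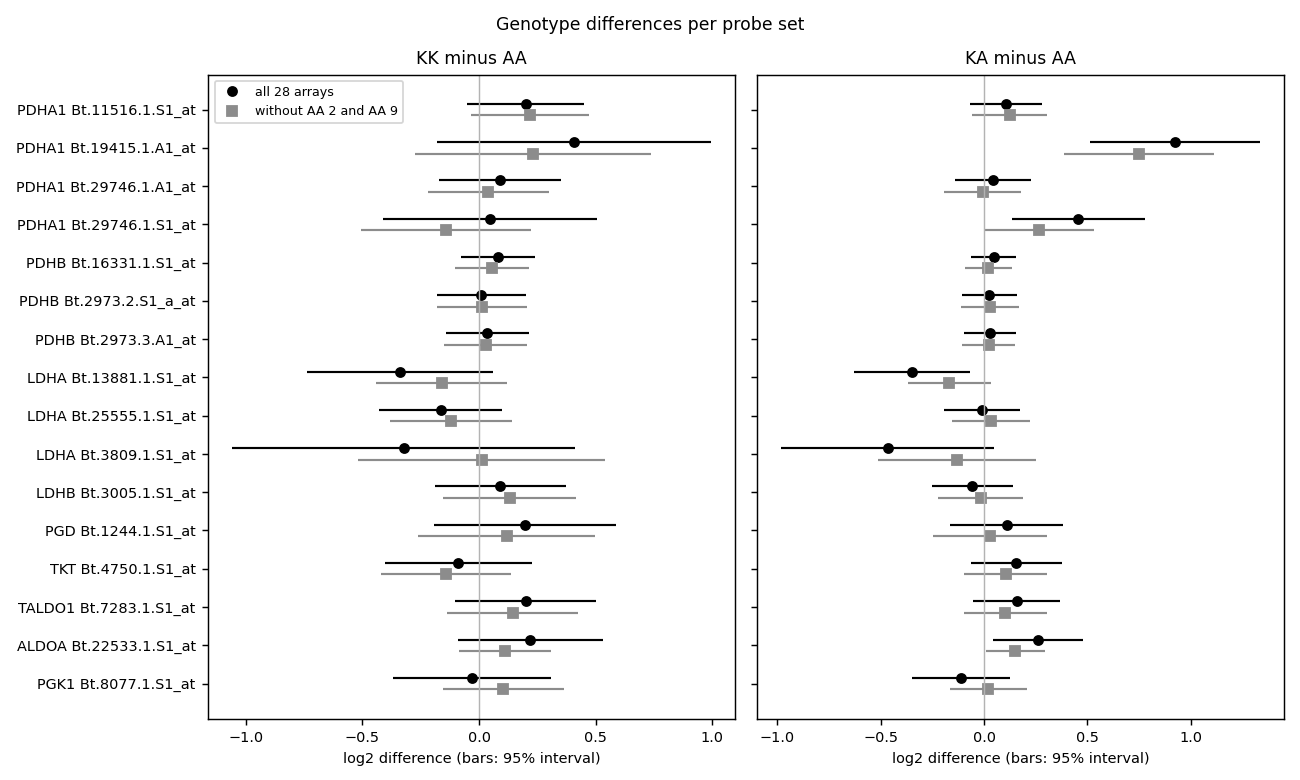
Difference in mean log2 value from AA (horizontal axis) with its 95% interval for each of the 16 probe sets (vertical axis), KK minus AA on the left and KA minus AA on the right. Black circles use all 28 arrays and grey squares leave out AA 2 and AA 9. In KK minus AA every interval crosses 0. In KA minus AA the interval of PDHA1 Bt.19415.1.A1_at runs from 0.51 to 1.34 with all arrays and from 0.39 to 1.11 without that pair.

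In AA 2 and AA 9 the enzymes did not all lie to 1 side. Both cows lay above the other 26 cows in 3 of the 16 probe sets (LDHA Bt.13881.1.S1_at, LDHA Bt.3809.1.S1_at and PGK1), where the background was 18.4% of all probe sets. Both lay below the others in 1, PDHA1 Bt.29746.1.S1_at, where the background was 17.7%. AA 2 was the lowest of all cows in 6 of the 16, namely PDHA1 Bt.19415.1.A1_at and Bt.29746.1.S1_at, PGD, TKT, TALDO1 and ALDOA, where the background was 21.9%. These counts are given as a description of the pair. The fibroblast, matrix and T cell markers were high in the same pair, with T cell means of 0.85 and 1.08, against -0.42 to 0.73 in the other 26. Myeloid means (0.44 and 0.48) lay inside the range of the other 26 (-0.49 to 0.71). So did those of B and plasma cells (0.56 and 0.50, against -0.78 to 1.18).

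AA 1 was another extreme cow. Of the 26 cows other than AA 2 and AA 9 it was the lowest in 7 of the 16 probe sets, LDHA Bt.25555.1.S1_at and Bt.3809.1.S1_at, LDHB, PGD, TKT, ALDOA and PGK1, and the highest in 0. Over all probe sets it was lowest in 8.23% and highest in 9.06%. Over the bright ones it was lowest in 19.5% and highest in 2.29%. Its values were -0.46 in LDHB, -0.44 in TKT, -0.24 in ALDOA and -0.57 in PGK1. Its marker means were also the lowest of the 26 for fibroblast and matrix (-0.48) and for secretory epithelium (-0.23). The same held for myoepithelium and smooth muscle (-0.54), myeloid cells (-0.49) and endothelium (-0.18). It did not hold for T cells, B and plasma cells, adipocytes or red blood cells. The part of these marker means in the values of AA 1 was not tested.

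Probe sets of the same gene tracked each other only in part. Over the 26 cows, Pearson's r for the 12 pairs of probe sets of 1 gene ran from -0.14 to 0.60 with a median of 0.16. Genotypes were pooled in these and the following correlations, so differences between genotype means are part of r and rho. The highest was PDHA1 Bt.19415.1.A1_at with Bt.29746.1.S1_at (r = 0.60, permutation adjusted p = 0.0188, Spearman's rho = 0.52, adjusted p = 0.0407). It was 0.41 without the 2 cows farthest from the median, 0.45 within the lower numbers and 0.68 within the upper ones (n = 13 each). The bright Bt.11516.1.S1_at had r of -0.07, 0.03 and -0.03 with the other PDHA1 probe sets. PDHB Bt.16331.1.S1_at and Bt.2973.2.S1_a_at had r = 0.50 (permutation adjusted p = 0.0545) and rho = 0.57 (adjusted p = 0.0388).

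Between genes, represented by 1 probe set each, 0 of 36 correlations passed in both r and rho. At r = 0.55, TKT with ALDOA was the highest (permutation adjusted p = 0.103, rho = 0.50, adjusted p = 0.251). It was 0.23 within the lower numbers and 0.54 within the upper ones. The lowest was PDHB with TKT, at r = -0.45 (adjusted p = 0.229).

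All 120 pairs of the 16 probe sets were looked at as well, a set chosen after the values had been seen. In that set 1 pair passed in both measures, LDHA Bt.3809.1.S1_at with PGK1. Its r was 0.80 (permutation p = 1e-05, the smallest that 100000 resamples can give, adjusted p = 0.0012) and its rho 0.72 (permutation p = 9e-05, adjusted p = 0.0108). Without the 2 cows farthest from the median r was 0.73, and it was 0.77 within the lower and 0.83 within the upper numbers. The cows with the highest PGK1 values of the 26, KA 5 (0.22) and KK 4 (0.20), also had the highest values of this LDHA probe set (1.16 and 0.68). KA 5 and KK 4 also had the highest marker means of the 26 for myeloid cells (0.71 and 0.69). The same held for T cells (0.22 and 0.73) and for B and plasma cells (0.38 and 1.18). Their fibroblast and matrix means, 0.20 and -0.22, lay inside the range of the other cows. The part of cell makeup in this correlation was not tested. The other LDHA probe sets had a weaker relation to PGK1 over the 26 cows, with r of 0.30 for Bt.13881.1.S1_at and -0.03 for Bt.25555.1.S1_at.

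**Figure D4:**
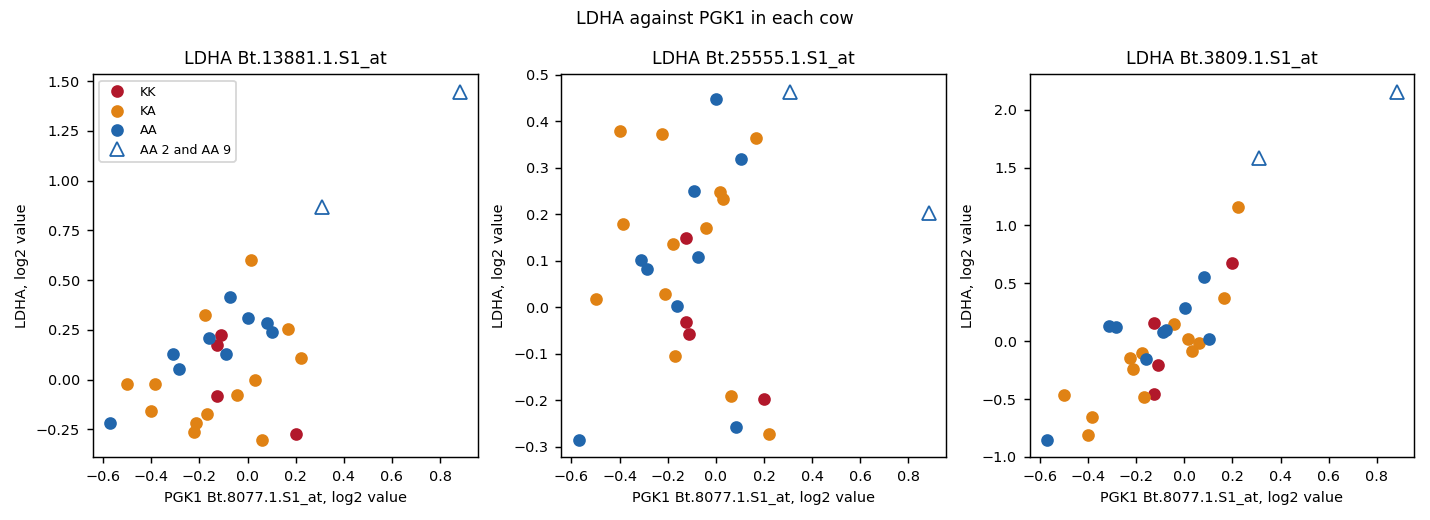
Log2 value of each LDHA probe set (vertical axis) against that of PGK1 (horizontal axis) in each cow, with KK in red, KA in orange and AA in blue, and AA 2 and AA 9 as open triangles. LDHA Bt.3809.1.S1_at rises with PGK1 over the 26 other cows (r = 0.80), and AA 2 and AA 9 lie at the top right.

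**Figure D5:**
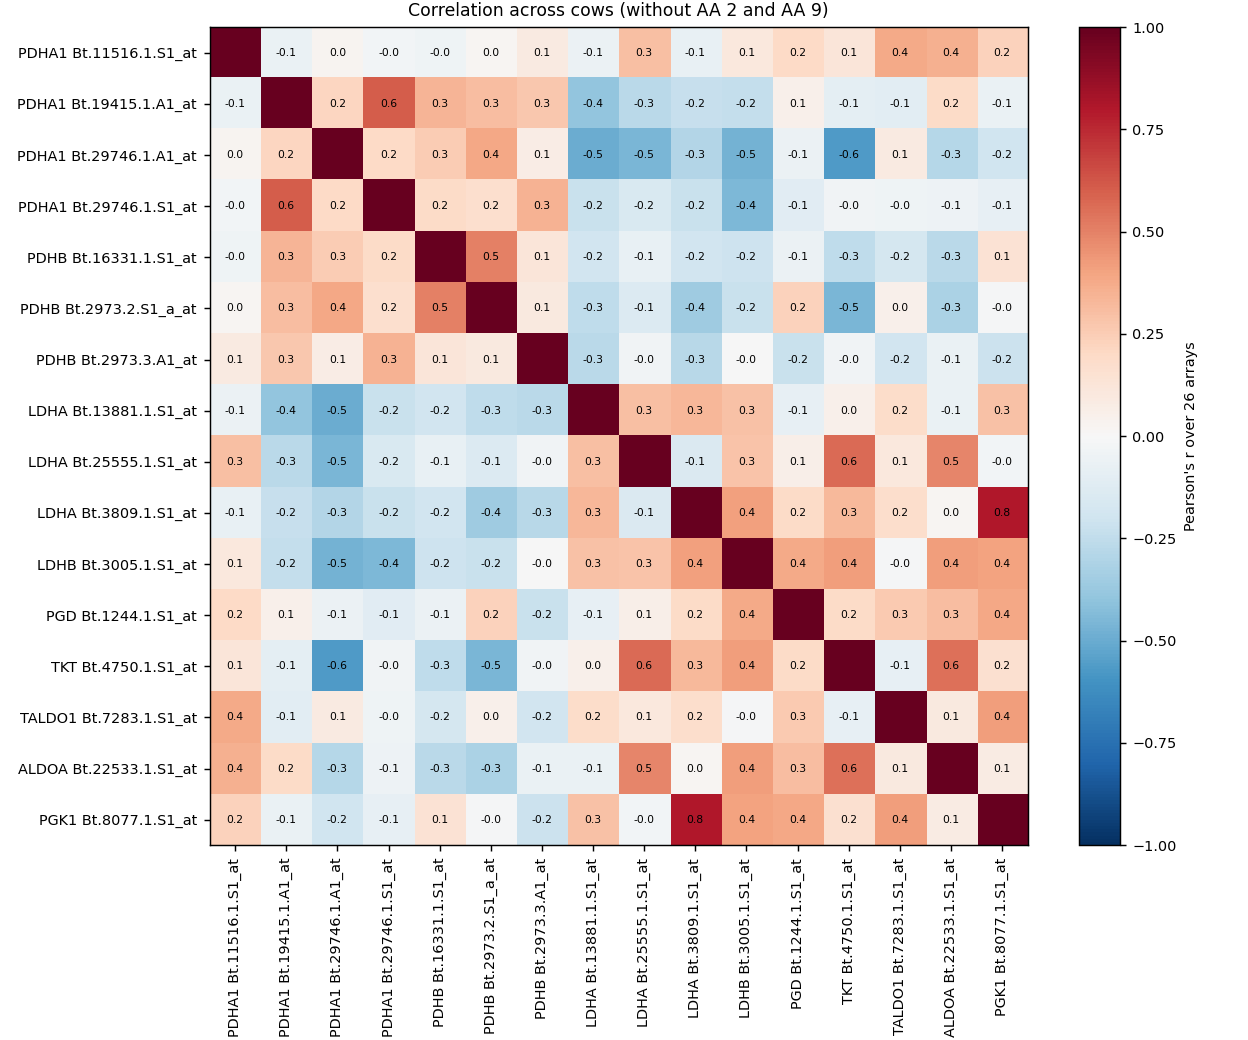
Pearson's r between each pair of the 16 probe sets over the 26 cows other than AA 2 and AA 9 (colour and printed value, rounded to 1 decimal). The pair LDHA Bt.3809.1.S1_at and PGK1, at 0.80, is the strongest, and the probe sets of PDHA1 do not form a common block.

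The probe sets outside the 16 whose pattern over the 26 cows was most like that of each gene were as follows, by Pearson's r and with no test. PGK1 was most like CCT5 (r = 0.88), ACTR3 (0.85) and EMP3 (0.84). LDHA Bt.13881.1.S1_at was most like BBS2 (0.84), MTRF1L and MED21. LDHB was most like the ribosomal protein genes RPL23 (0.82) and RPL7A (0.82) and then CLTA (0.80). TKT was most like MIF (0.84), NPDC1 and TRIM28. ALDOA was most like SSH3 (0.84), ILK and RING1, PGD like UBE2Q1 (0.78), ELOC and PLA2G16, and TALDO1 like SHC1 (0.73), SF3B5 and DLK1. PDHA1 Bt.11516.1.S1_at was most like UQCC4 (0.73), POLR2E and CCDC115, and PDHB was most like PTGR2 (0.77), ALG11 and UBE2K. With so many probe sets and 26 cows, high values of r are common, and each was read as a description.

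The neighbouring enzymes of these pathways, chosen by textbook role, also gave 0 calls in limma. Of 17 other glycolytic genes 15 were measured. Their slopes were positive in 8 and negative in 7, with a median of 0.0003, against 0.01 over all probe sets. Values for KA minus AA were 0.01 in GPI, -0.05 in TPI1, -0.19 in GAPDH, -0.02 in ENO1 and 0.09 in PKM. ALDOC, the brain-type aldolase, had a slope of 0.47 (SE 0.16) and a KA minus AA of 0.79 (SE 0.23), or 0.43 without AA 2 (-2.50) and AA 9 (-1.53), which lay below the lowest other cow (-0.50). HK3 had a slope of 0.15 (SE 0.06).

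Around pyruvate oxidation, 12 of 14 other genes were measured, with slopes positive in 6 and negative in 6. For KA minus AA, 5 of the 12 had an unadjusted limma p under 0.05, 3 positive and 2 negative, where the background was 21.8%. The kinases that switch off pyruvate dehydrogenase gave KA minus AA of 0.22 for PDK2, -0.39 for PDK3 and -0.52 for PDK4, and KK minus AA of 0.12, -0.35 and -0.09. Without AA 2 and AA 9 the KA minus AA values were 0.10, -0.26 and -0.44. The other PDK4 probe sets gave KA minus AA of -0.35 and -0.24. The remaining subunits of the complex gave KA minus AA of -0.16 for DLAT (0.16 and 0.48 in its other probe sets), -0.08 for DLD and -0.23 for PDHX. PC, which makes oxaloacetate from pyruvate, gave 0.47 (SE 0.12, or 0.35 without AA 2 and AA 9), and 0.10 in each of its other, dim probe sets. CS gave 0.14, and 0.47 in its other probe set.

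MPC1 and MPC2, which form the mitochondrial pyruvate carrier, gave KA minus AA of 0.15 and 0.44, and -0.12 and 0.10 without AA 2 and AA 9. Both genes were below the range of the other cows in AA 2 (-1.73 and -1.87) and AA 9 (-1.48 and -2.31). The same held for SLC16A1, a lactate and pyruvate transporter, with -2.55 and -3.12 in that pair, while all other cows lay between -1.23 and 0.84. Its KA minus AA was 0.59, or 0.11 without the pair. Of 7 genes for transport and the other lactate dehydrogenases 5 were measured. SLC16A3 gave a KA minus AA of 0.03 (0.16 and 0.07 in its other probe sets), BSG, the partner protein of these transporters, 0.30 (0.12 without AA 2 and AA 9, and 0.03 in its other, dim probe set), and LDHC -0.02.

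Of 12 further pentose phosphate genes 7 were measured, with slopes positive in 5 and negative in 2. PGLS, which hydrolyses 6-phosphogluconolactone, gave a KA minus AA of 0.19 and a KK minus AA of 0.06. RPIA gave -0.23 and -0.31, and SHPK 0.22 and 0.14, whereas without AA 2 and AA 9 RPIA gave -0.03 and -0.11, and SHPK 0.04 and -0.04. The other cytosolic NADPH sources, 4 of 4 measured, had positive slopes in all 4 (median 0.11, against 0.01 over all). Their slopes were 0.13 in IDH1 (SE 0.07), 0.09 in ME1, 0.10 in MTHFD1 and 0.12 in ALDH1L1, none past the test, and 3 of the 4 were positive without AA 2 and AA 9. Other probe sets gave slopes of 0.23 and 0.03 for IDH1, and -0.31 for a dim one of ME1.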

How the data were processed

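The deposited values were log2 values per probe set of the Affymetrix bovine array. The authors used R 2.13 and Bioconductor 2.7, per the labels' protocols. The submitters' processing notes name RMA and GCRMA without saying which made the table. The values had lost a baseline per probe set, a step no source used here describes, so signal over background is unknown.

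The table held 24128 probe sets, and 112 controls were left out. Gene symbols came from the platform annotation, and 13263 of 13292 probe sets with 1 symbol were matched to RefSeq of assembly ARS-UCD2.0. Level classes came from the rounding steps of the values (bright from a log2 level of 8, intermediate from 4, at least 85% of values on the step). Groups were the DGAT1 genotypes in the labels. Replicate numbers were given in accession order, and p-values measure the spread between cows.

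Tests used lmFit and eBayes of limma 3.58.1 under R 4.3.3 (no covariate, all 28 arrays, Benjamini-Hochberg over 24016 probe sets, threshold 0.05). The script was checked on simulated arrays with 100 changed probe sets per size of change. Differences between probe sets of a gene and correlations used two-sided permutation tests (SciPy 1.17.1), exact where a group had under 10 cows and otherwise with 100000 resamples, adjusted within each family.

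All probe sets of the members were named. Of the neighbouring genes a fixed set by role was named, with up to 2 more of each list by smallest slope p, and for likeness the 3 closest probe sets. Members, lists and tests were chosen with earlier results of these data known. Alternatives were quantile normalization, centring of arrays, array weights, array number, robust variances, a fibroblast marker covariate, other filters and thresholds, and leaving out arrays. That assembly served for names only, and coordinates are left out because the array's own build was not named.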

Additional observations from a re-analysis of the deposited data

Results flagged for a closer look

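The KK group of each of the 16 probe sets was examined for a cow far from the others, and chance marks about 1 in 20 such groups. It marked 1 of 16. In PGK1, KK 4 had 0.20, against -0.11 for the nearest and -0.13 for the farthest of the other KK cows, and its gap to them was 0.95 of the group's range, above the critical value for 4 cows. The same cow had the highest KK value in LDHA Bt.3809.1.S1_at, at 0.68. Its marker means for T cells (0.73), myeloid cells (0.69) and B and plasma cells (1.18) were the highest of the KK cows. Their part was not tested.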

How the results depend on the processing

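Over 41 alternative settings, of which 28 left out 1 array each, 1946 values of single probe sets were recomputed. Of these 1840 kept their sign, 76 changed sign while moving by less than 1 SE, and 30 changed sign and moved by more. The count of kept signs includes values that could not change. Another threshold, robust variances and the removal of dim probe sets leave each estimate as it was. Leaving out cows of the third genotype likewise leaves a difference between 2 groups as it was. The count of the 16 probe sets that passed for KA minus AA was 1 after quantile normalization and 1 with array weights (PDHA1 Bt.19415.1.A1_at at 0.86 and 0.75), and 0 to 1 when 1 array was left out, the 1 arising without AA 1. Over all probe sets 47 were called for KA minus AA after quantile normalization, 104 with array weights and 525 without AA 1, against 0. At an adjusted p threshold of 0.10 the count was 12, and in the other settings it was 5 or fewer. For KK minus KA, 62 were called with the fibroblast and matrix marker mean as a covariate and 3 with array weights, none of them among the 16. The count of differences between probe sets that passed was 1 without AA 2, AA 9 and AA 11 and 3 with the array number ranges as a block, against 2, and 1 correlation passed with all 120 pairs, against 0. The count of 3 rests on permutation after the range effect was subtracted, which leaves out the uncertainty of that effect. The causes were not tested.

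The 30 were these. The slope of PDHA1 Bt.29746.1.S1_at was -0.0009 without AA 2 and AA 9, -0.042 without AA 11 too, -0.012 without AA 2 and AA 9 with the array number ranges as a block, and -0.084 with the fibroblast and matrix marker mean as a covariate. Its KK minus AA was -0.20 without the 3 cows and -0.34 with that covariate. With that covariate PDHA1 Bt.29746.1.A1_at had a slope of -0.039, a KK minus AA of -0.070 and a KA minus AA of -0.054, LDHA Bt.13881.1.S1_at a slope of 0.0039 and a KK minus AA of 0.066, LDHA Bt.3809.1.S1_at a slope of 0.21, a KK minus AA of 0.50 and a KA minus AA of 0.034, LDHB a KA minus AA of 0.047, and PGK1 a slope of 0.13, a KK minus AA of 0.29 and a KA minus AA of 0.082. PGK1 also had a slope of 0.046 and a KA minus AA of 0.021 without AA 2 and AA 9. These were 0.058 and 0.039 without AA 11 too, and 0.049 and 0.087 without AA 2 and AA 9 with the block. LDHA Bt.3809.1.S1_at had a KK minus AA of 0.043 without the 3 cows. PDHA1 Bt.11516.1.S1_at had a KA minus AA of -0.019 without AA 2 and AA 9 with the block. TKT had a KA minus AA of -0.045 with the block, -0.023 with array number as a linear term, and -0.093 with the block and without AA 2 and AA 9, and its KK minus AA was 0.091 with the linear term. No paired analysis was possible because the replicate numbers were given in accession order and pair no cows. An intensity trend needs levels, which the values lack, so only robust variances were run, the slope was not fitted on 2 groups, and the dim PDHB probe sets have no value once dim probe sets are left out. The unknown signal over background limits what the dim and intermediate probe sets can show.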
